A study of Mus musculus with 16 samples.

Results

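The genes described here are 10 markers of macrophage identity and state, chosen by symbol from the 54532 genes of the aortic count table, and each of the 10 symbols stood for 1 row. Cd68, Adgre1, Spi1 and Itgb2 mark macrophages and related leukocytes as a whole. Mrc1, Cd163, Clec10a and Lyve1 are usual markers of tissue-resident macrophages, and Trem2 and Gpnmb mark macrophages that take up lipid and debris. Aortas of 16 male C57BL/6J mice, 4 in each of 4 groups, gave 1 poly(A)-selected library each. Chronic kidney disease was modelled by 5/6 nephrectomy (5/6 Nx), in which the poles of the left kidney were ligated and the right kidney was taken out 1 week later, starting at 12 weeks of age. After 2 weeks of recovery the mice received a diet for 4 weeks (30 days in the labels). The nephrectomized groups are called by their diets, high-phosphate and low-protein (HPi-Lp, 2% phosphorus with 2.5% protein), high-phosphate and high-protein (HPi-Hp, 2% with 18%) and low-phosphate and low-protein (LPi-Lp, 0.3% with 2.5%). The Sham mice were operated on without nephrectomy and ate the HPi-Lp food. No Sham library on the latter 2 diets was analysed here, so that nephrectomy is compared on equal food only between the HPi-Lp and Sham mice.

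Macrophages of the arterial wall come from embryonic precursors and from blood monocytes, and their survival depends on the receptor CSF1R and its ligands CSF1 and IL-34. Those of the adventitia usually carry LYVE1 and the mannose receptor CD206, clear debris and limit collagen build-up. Macrophages that engulf lipid or mineral debris switch on TREM2, GPNMB and osteopontin, while monocytes newly drawn into a lesion carry CCR2. Most of these genes are also used elsewhere. Itgb2 and Spi1 are active in other leukocytes, Lyve1 and Mrc1 in lymphatic endothelium, and Gpnmb in osteoclasts and melanocytes. In bulk tissue, more macrophages and more RNA per macrophage cannot be told apart, which holds for each result here.

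Values of 1 gene between libraries are given in CPM (TMM scaling over the 16 libraries), and levels between genes as the deposited FPKM, which are per gene length. Depth differed between the groups. Library totals were 20795568 to 24204348 counts in the Sham group, 13659525 to 18186113 in the HPi-Hp group and 13738098 to 21547424 in the LPi-Lp group, against 15013203 to 57276915 in the HPi-Lp group, whose libraries 2 and 3 were the deepest of all. Counts per library for the 10 genes ran from 30 to 9503. Mitochondrially encoded genes took 5.19% ± 1.01 (SD, n = 4) of counts in the Sham mice and 23.5% ± 3.36, 19.96% ± 8.78 and 17.4% ± 2.83 in the HPi-Lp, HPi-Hp and LPi-Lp mice. Leaving these genes out changed the number of the 10 called in none of the 6 comparisons. The part of mitochondrial share in the results was not tested further.

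All 10 macrophage genes were called higher in the aortas of the HPi-Lp mice than in those of the Sham and LPi-Lp mice. In comparison with the HPi-Hp mice, 9 of the 10 were called higher. Called here means that the adjusted p did not exceed 0.05 (edgeR quasi-likelihood test, Benjamini-Hochberg over all genes tested) while the log2 fold change was 1 or more in size. Against Sham, where 15.0% of all genes tested were called higher, 10 of 10 were called higher, with a median log2 fold change of 2.50 (all genes, -0.00275). Against the HPi-Hp mice, where 5.01% were called higher, 9 of 10 were called higher with a median of 1.82 (all genes, 0.00976), and Lyve1 missed the fold threshold. Compared with the LPi-Lp mice, 10 of 10 were called higher with a median of 2.33 (all genes, -0.0158), beside 7.90% of all genes. The 3 comparisons share the HPi-Lp libraries and are thus not independent of each other.

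Library by library, the separation was nearly as complete. The lowest HPi-Lp library stood above the highest Sham library for 9 of the 10 genes, with Gpnmb as the exception, beside 18.8% of all genes tested. It stood above the highest HPi-Hp library for 8 of the 10, with Cd68 and Spi1 as exceptions, beside 10.1% of all genes. For 10 of the 10 it stood above the highest LPi-Lp library, beside 12.6% of all genes.

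**Figure D1:**
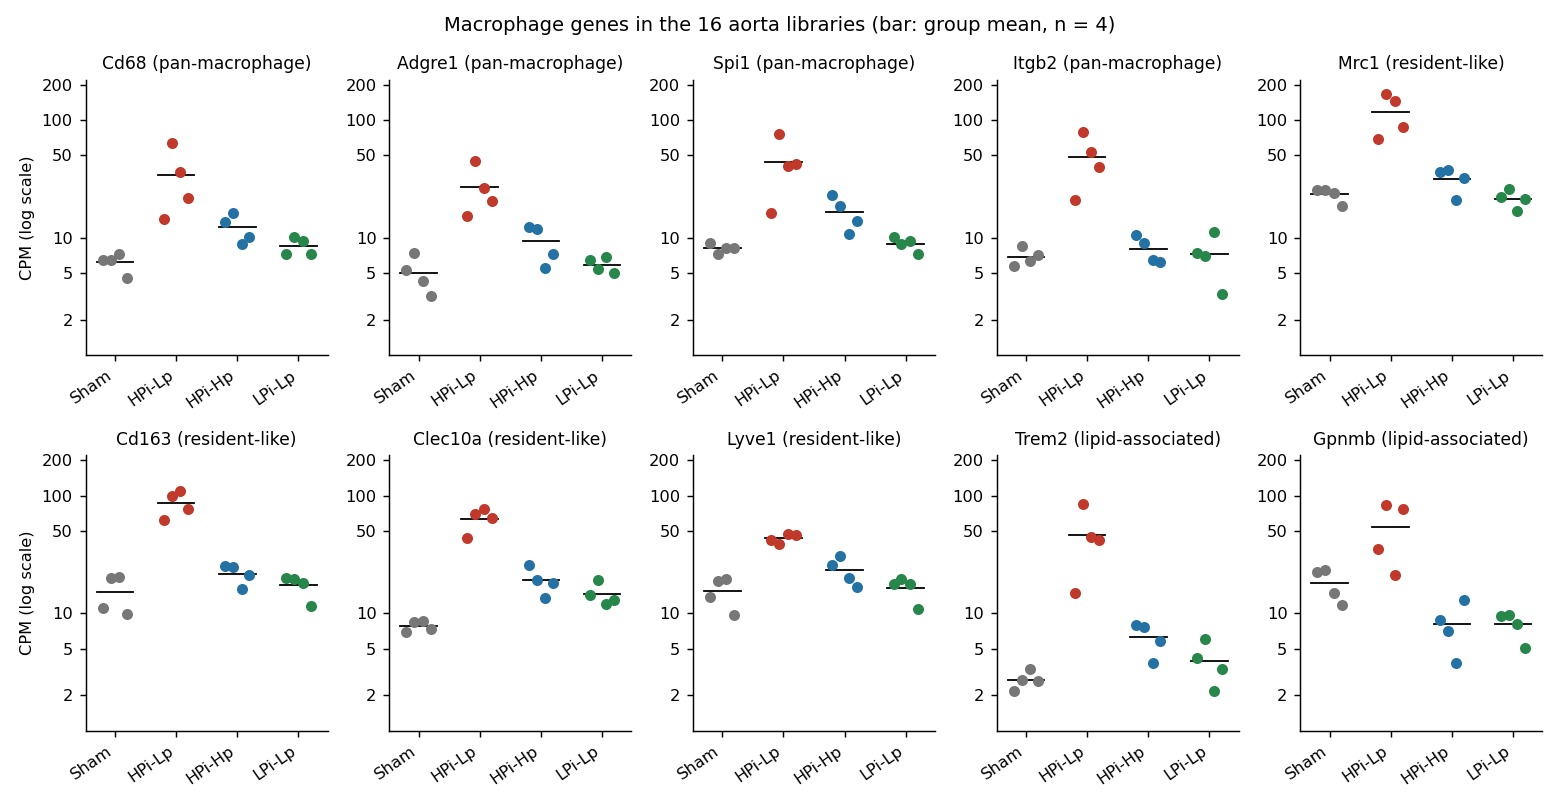
CPM on a log axis (same scale in each panel) of the 10 macrophage genes in 4 libraries of each of the 4 groups, with black bars at group means. The HPi-Lp points lie above the Sham points in 9 panels, and Gpnmb is the gene whose Sham points lie above most of those of the other 5/6 Nx groups.

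Among the genes of macrophages as a whole, Cd68 encodes a lysosomal glycoprotein (chromosome 11, 69664213 to 69666153, minus strand, mm10). Its level was 6.44, 6.47, 7.26 and 4.55 CPM in the 4 Sham libraries and 14.2, 63.7, 35.8 and 21.8 CPM in the HPi-Lp libraries. The HPi-Hp libraries held 13.6, 16.3, 8.77 and 10.2 CPM of Cd68, and the LPi-Lp libraries 7.26, 10.1, 9.32 and 7.28 CPM. Library 1 of the HPi-Lp mice thus lay within the HPi-Hp range, and library 2 was 4.47 times as high as library 1. Cd68 rose by 2.52 ± 0.41 (log2 fold change ± SE, n = 4 mice per group) against Sham (adjusted p = 0.00106, edgeR) and by 2.02 ± 0.42 against LPi-Lp (adjusted p = 0.0121, edgeR). The rise of 1.48 ± 0.42 against HPi-Hp was close to the threshold (adjusted p = 0.0452, edgeR).

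Adgre1 encodes F4/80, the classical surface marker of mouse macrophages (chromosome 17, 57358691 to 57483527). Sham libraries held 5.28, 7.39, 4.24 and 3.20 CPM and HPi-Lp libraries 15.2, 44.7, 26.5 and 20.3 CPM. In the HPi-Hp and LPi-Lp mice Adgre1 was at 12.3, 11.9, 5.55 and 7.22 CPM and at 6.39, 5.40, 6.77 and 5.00 CPM. The HPi-Lp libraries were all above the others, though library 1 was close to the upper HPi-Hp values. Adgre1 rose by 2.47 ± 0.36 against Sham, 1.54 ± 0.37 against HPi-Hp and 2.20 ± 0.33 against LPi-Lp (adjusted p = 0.000552, 0.0261 and 0.00344, edgeR).

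Spi1 encodes PU.1, the transcription factor that sets the myeloid lineage (chromosome 2, 91082390 to 91115756). Its Sham values were tight, at 9.06, 7.21, 8.21 and 8.06 CPM, while the HPi-Lp values were 16.01, 75.6, 40.5 and 42.3 CPM. Spi1 was at 23.1, 18.7, 10.7 and 13.9 CPM in the HPi-Hp libraries and at 10.2, 8.72, 9.25 and 7.19 CPM in the LPi-Lp libraries. Library 1 of the HPi-Lp mice fell below 2 of the HPi-Hp libraries. Against Sham and LPi-Lp, Spi1 rose by 2.48 ± 0.38 and 2.32 ± 0.40 (adjusted p = 0.000701 and 0.00567, edgeR), and against HPi-Hp by 1.40 ± 0.41, just inside the threshold (adjusted p = 0.0498, edgeR).

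Itgb2 encodes CD18, the shared beta chain of the leukocyte integrins (chromosome 10, 77530252 to 77565708). The 4 libraries gave 5.70, 8.39, 6.32 and 7.08 CPM in the Sham mice and 20.7, 79.7, 53.0 and 40.1 CPM in the HPi-Lp mice. Itgb2 stayed near the Sham level in the HPi-Hp mice (10.5, 9.06, 6.37 and 6.18 CPM) and the LPi-Lp mice (7.42, 6.90, 11.2 and 3.33 CPM). None of those values reached the lowest HPi-Lp library. The log2 fold changes of Itgb2 were 2.87 ± 0.36 against Sham, 2.59 ± 0.38 against HPi-Hp and 2.76 ± 0.46 against LPi-Lp (adjusted p = 0.000222, 0.00497 and 0.00498, edgeR).

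The calls of Cd68, Adgre1 and Spi1 against the HPi-Hp mice were the least firm of the 9. Without HPi-Lp library 2, 3 or 4, or without HPi-Hp library 3, all 3 lost the call and 6 of the 10 genes remained called. Leaving out HPi-Hp library 2 also took the calls of these 3 genes and brought Lyve1 past the fold threshold. Without HPi-Hp library 1 or 4, Cd68 and Spi1 lost theirs. Over these fits the adjusted p ran from 0.0660 to 0.106 for Cd68, from 0.0517 to 0.0599 for Adgre1 and from 0.0634 to 0.117 for Spi1 (edgeR). The log2 fold changes in the fits that lost the call were 1.35 to 1.64 for Cd68, 1.35 to 1.67 for Adgre1 and 1.23 to 1.59 for Spi1, except without HPi-Lp library 2, where they were 0.98, 1.17 and 0.99. With both deep libraries of the HPi-Lp group (2 and 3) left out together, the log2 fold changes against HPi-Hp were 0.56 for Cd68, 0.94 for Adgre1 and 0.80 for Spi1 (adjusted p = 0.335, 0.164 and 0.286, edgeR), again with 6 of 10 called, and against Sham and LPi-Lp 10 of 10 stayed called. Thinning each library to the same total left 8 of 10 called against HPi-Hp.

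The promoters of members matched in RefSeq (GRCm38.p6, 250 bases before to 50 bases after the gene start) are shown for the 3 that held a motif of a factor known from macrophages, 5 of the 10 genes being in the table. The capitals mark TGACTCA or its reverse complement TGAGTCA, the site of AP-1 (FOS and JUN factors), in Cd68 (chr11:69666121-69666420, minus strand) and Gpnmb (chr6:49036268-49036567, plus strand), and ACTTCCT, the reverse complement of the ETS core AGGAAGT that PU.1 and its relatives bind, in Mrc1 (chr2:14229164-14229463, plus strand).
Cd68: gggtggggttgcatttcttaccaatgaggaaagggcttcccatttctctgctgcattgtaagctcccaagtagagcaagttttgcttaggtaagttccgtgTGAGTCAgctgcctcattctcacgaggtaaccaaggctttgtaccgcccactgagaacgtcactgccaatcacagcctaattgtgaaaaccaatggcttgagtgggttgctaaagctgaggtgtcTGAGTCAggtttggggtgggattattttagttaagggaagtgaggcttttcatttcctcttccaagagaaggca
Gpnmb: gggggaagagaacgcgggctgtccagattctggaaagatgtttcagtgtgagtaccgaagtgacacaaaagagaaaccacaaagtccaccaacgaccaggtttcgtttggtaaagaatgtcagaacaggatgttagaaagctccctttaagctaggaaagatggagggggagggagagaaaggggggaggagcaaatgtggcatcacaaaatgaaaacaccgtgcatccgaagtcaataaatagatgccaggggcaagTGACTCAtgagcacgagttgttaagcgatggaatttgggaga
Mrc1: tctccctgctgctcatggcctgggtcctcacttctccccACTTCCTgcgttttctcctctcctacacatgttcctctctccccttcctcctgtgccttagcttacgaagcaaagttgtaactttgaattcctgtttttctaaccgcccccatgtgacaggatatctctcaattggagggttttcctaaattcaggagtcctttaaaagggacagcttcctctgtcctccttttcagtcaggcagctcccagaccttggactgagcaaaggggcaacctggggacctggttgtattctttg
AP-1 letters stood in 2 of the 5 promoters, starting at positions 102 and 227 in Cd68 and 259 in Gpnmb, and in 5.20% of the 32851 mouse promoters of the table. ETS letters stood in 1 of the 5, at position 40 of Mrc1, and in 9.35% of all promoters. CACGTG, the site of the lysosomal regulator TFEB and its relatives (7.15% of all), and TGCTGAC, part of the site of MAF factors (4.67%), stood in 0 of the 5. Positions count from 1 at the 5′ end, and the letters were searched on both strands.

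Resident-like genes rose with the others, and more evenly among the HPi-Lp libraries. Mrc1, the mannose receptor CD206 (chromosome 2, 14229392 to 14332057), was at 25.4, 25.3, 24.0 and 18.6 CPM in the Sham libraries and at 69.2, 166, 146 and 87.9 CPM in the HPi-Lp libraries. It was at 35.8, 37.3, 20.7 and 32.0 CPM in the HPi-Hp mice and 21.9, 25.8, 16.8 and 21.3 CPM in the LPi-Lp mice, both ranges lying wholly below the HPi-Lp range. Mrc1 rose by 2.38 ± 0.26 against Sham, 1.90 ± 0.30 against HPi-Hp and 2.46 ± 0.29 against LPi-Lp (adjusted p = 0.000124, 0.00572 and 0.00159, edgeR).

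Cd163 encodes the receptor that takes up complexes of haemoglobin and haptoglobin (chromosome 6, 124304656 to 124330527). The Sham libraries gave 11.1, 20.02, 20.2 and 9.84 CPM and the HPi-Lp libraries 61.7, 99.7, 109 and 77.7 CPM. Cd163 was at 25.4, 24.5, 16.2 and 20.9 CPM in the HPi-Hp and 19.9, 19.5, 18.1 and 11.6 CPM in the LPi-Lp libraries, so that each HPi-Lp value was above all 12 others. Its log2 fold changes were 2.56 ± 0.27 against Sham, 2.00 ± 0.22 against HPi-Hp and 2.34 ± 0.24 against LPi-Lp (adjusted p = 0.000102, 0.00203 and 0.00095, edgeR).

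Clec10a encodes a lectin of macrophages and dendritic cells that binds galactose-type sugars (chromosome 11, 70156197 to 70170834). Its rise against Sham had the smallest standard error of the 10. Sham libraries held 6.86, 8.35, 8.57 and 7.39 CPM and HPi-Lp libraries 43.6, 70.0, 76.8 and 64.9 CPM. Intermediate values were seen in the HPi-Hp mice (25.8, 19.3, 13.5 and 18.1 CPM) and the LPi-Lp mice (14.2, 19.3, 12.1 and 12.9 CPM), and all 12 nephrectomized mice lay above all 4 Sham mice. Clec10a rose by 3.09 ± 0.18 against Sham, 1.74 ± 0.23 against HPi-Hp and 2.13 ± 0.22 against LPi-Lp (adjusted p = 1.2e-05, 0.00378 and 0.00095, edgeR). Clec10a has a close copy, Mgl2, with which reads may be shared, since how the counting treated reads matching several genes is not given in the sources used here. Mgl2, named after its values were seen, did not move with it and was lower in the HPi-Lp mice than in HPi-Hp (-1.30 on the log2 scale, adjusted p = 0.0361, edgeR).

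Lyve1, a hyaluronan receptor of perivascular macrophages and lymphatic endothelium (chromosome 7, 110850607 to 110863239, minus strand), changed the least. Values of 13.9, 18.7, 19.6 and 9.61 CPM in the Sham mice compared with 41.9, 38.5, 47.1 and 46.7 CPM in the HPi-Lp mice. Lyve1 was at 25.8, 30.8, 20.02 and 16.8 CPM in the HPi-Hp libraries and at 17.7, 19.6, 17.8 and 10.9 CPM in the LPi-Lp libraries. The HPi-Lp libraries were above all the others and within 1.22 times of each other. Lyve1 rose by 1.55 ± 0.20 against Sham and 1.40 ± 0.19 against LPi-Lp (adjusted p = 0.000314 and 0.0023, edgeR). Against HPi-Hp the log2 fold change was 0.90 ± 0.20 (adjusted p = 0.0214, edgeR), under the fold threshold. Of 6 other lymphatic endothelial markers, Pdpn and Flt4 were called higher in the HPi-Lp mice against Sham. Prox1 (log2 fold change 1.79, adjusted p = 0.129, edgeR), Reln, Mmrn1 and Ccl21a were not. The summed level of the 6 was 19.5 to 34.7 CPM in the Sham and 50.2 to 68.7 CPM in the HPi-Lp libraries. In the HPi-Hp and LPi-Lp libraries it was 30.2 to 47.8 and 29.2 to 62.2 CPM. The part of these markers in the Lyve1 and Mrc1 results was not tested.

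Trem2 encodes a lipid-sensing receptor of phagocytes (chromosome 17, 48346401 to 48354147) and had the largest fold change of the 10 in each comparison of the HPi-Lp mice. Only 2.16, 2.71, 3.38 and 2.65 CPM were found in the Sham libraries, 56 to 75 counts each, against 15.0, 84.4, 44.5 and 41.6 CPM in the HPi-Lp libraries. Trem2 was at 7.96, 7.59, 3.75 and 5.85 CPM in the HPi-Hp mice and at 4.17, 6.02, 2.18 and 3.38 CPM in the LPi-Lp mice. The ratio of group means to Sham was 17.0 in the HPi-Lp mice, 2.31 in the HPi-Hp mice and 1.45 in the LPi-Lp mice. Trem2 rose by 4.15 ± 0.46 against Sham, 2.89 ± 0.47 against HPi-Hp and 3.57 ± 0.51 against LPi-Lp (adjusted p = 0.000127, 0.00617 and 0.00306, edgeR), and with HPi-Lp libraries 2 and 3 left out it rose by 3.43, 2.16 and 2.81.

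Gpnmb, a membrane glycoprotein of lysosome-rich macrophages (chromosome 6, 49036546 to 49070929), followed another order of groups. Levels of 22.5, 23.3, 14.9 and 11.7 CPM in the Sham mice stood above most of those in the HPi-Hp mice (8.77, 7.10, 3.75 and 12.96 CPM) and all those in the LPi-Lp mice (9.42, 9.60, 8.16 and 5.05 CPM). The HPi-Lp libraries gave 34.9, 83.8, 21.1 and 76.8 CPM, of which library 3 lay within the Sham range. Gpnmb rose by 1.63 ± 0.42 against Sham (adjusted p = 0.0114, edgeR), and by 2.74 ± 0.49 and 2.76 ± 0.44 against HPi-Hp and LPi-Lp (adjusted p = 0.00906 and 0.00442, edgeR). Library 3, low for Gpnmb, was the second highest of the group for Cd68, Adgre1, Itgb2, Mrc1 and Trem2. Of 5 melanocyte markers only 1 could be tested in the HPi-Lp mice against Sham (Pmel, log2 fold change -0.27), and it was not called. Tyr and Tyrp1 had 0 to 13 counts in each library, and the summed level of 5 such markers was 1.98 to 3.08 CPM in the Sham and 1.42 to 2.87 CPM in the HPi-Lp libraries. Osteoclast markers, 7 genes, summed to 31.3 to 39.7 CPM in the Sham and 126 to 382 CPM in the HPi-Lp libraries. In the HPi-Hp and LPi-Lp libraries the sums were 48.4 to 169 and 53.5 to 104 CPM. Acp5 alone had means of 13.8, 97.6, 80.8 and 57.9 CPM in the Sham, HPi-Lp, HPi-Hp and LPi-Lp mice. The part of melanocyte and osteoclast markers in the Gpnmb result was not tested.

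**Figure D2:**
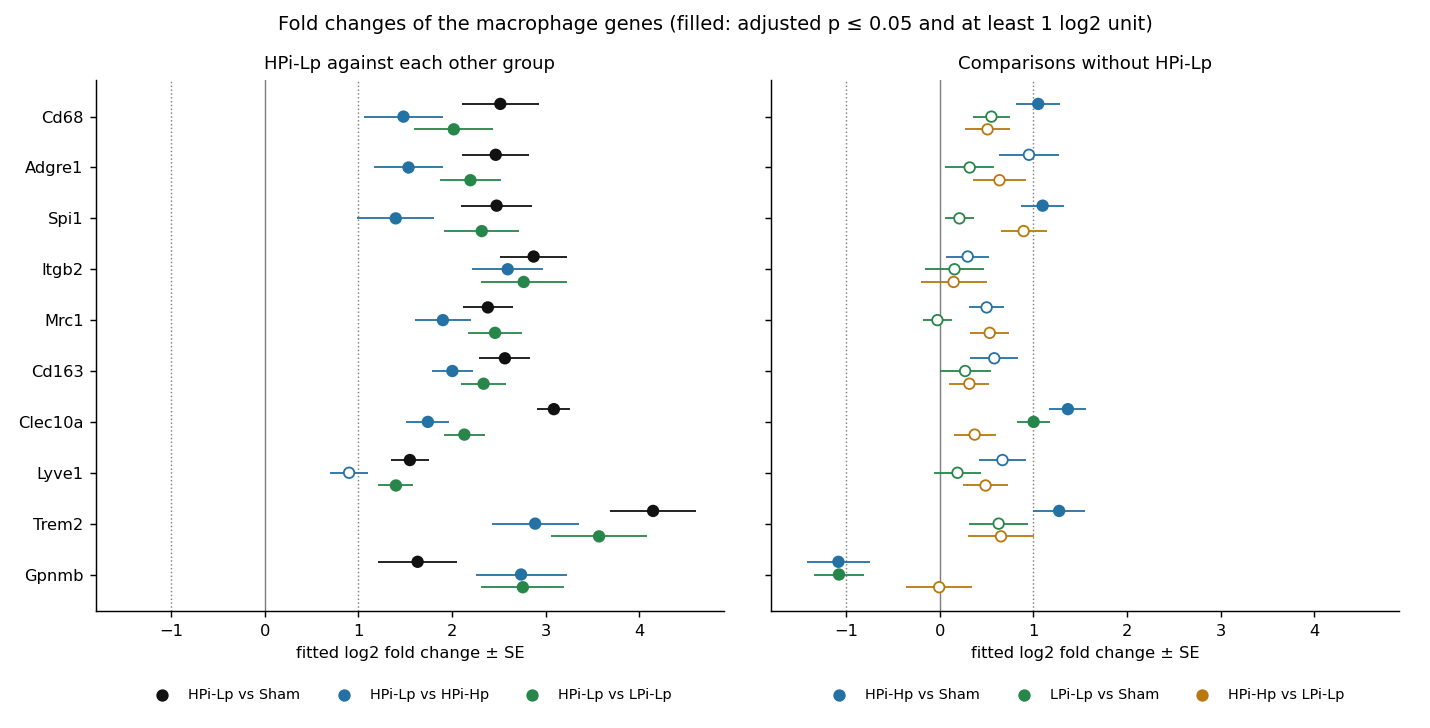
Fitted log2 fold changes with standard errors (4 mice per group) of the 10 genes, on the left for the HPi-Lp mice against each other group and on the right for the 3 comparisons without them, with filled points where the gene was called. Trem2 reaches 4.15 against Sham on the left, and on the right Gpnmb is the gene with values of -1.08 and -1.07.

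Fewer of the genes were called in the 3 comparisons without the HPi-Lp mice. In the HPi-Hp mice against Sham, which differ in surgery and in protein, 4 of the 10 were called higher, beside 9.41% of all genes, and 1 was called lower, beside 2.75%. The higher genes were Clec10a (1.37 ± 0.20), Trem2 (1.28 ± 0.28), Spi1 (1.10 ± 0.23) and Cd68 (1.05 ± 0.23), with adjusted p = 0.00899, 0.0124, 0.011 and 0.0126 (edgeR), and Gpnmb was lower (-1.08 ± 0.34, adjusted p = 0.0362, edgeR). Adgre1 passed the p threshold and not the fold threshold (0.95 ± 0.33, adjusted p = 0.048, edgeR). Itgb2 was at 0.30 ± 0.23, Mrc1 at 0.50 ± 0.19, Cd163 at 0.58 ± 0.25 and Lyve1 at 0.67 ± 0.25, none past the threshold. The median of the 10 was 0.81 (all genes, 0.0179). Of these calls, Clec10a and Trem2 held with any library left out. Gpnmb lost its call without Sham library 1, 2 or 3 or HPi-Hp library 1, 2 or 3 (adjusted p from 0.0541 to 0.0973, edgeR). Cd68 fell under the fold threshold without Sham library 4 or HPi-Hp library 1 or 2 (log2 fold change 0.88 to 0.98), as did Spi1 without HPi-Hp library 1 (0.88), and Adgre1 came above it without HPi-Hp library 3 or 4 (1.12 and 1.07). Called genes numbered 2 without HPi-Hp library 1 and 3 without library 2.

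In the LPi-Lp mice against Sham, which differ in surgery and in phosphorus, 1 of the 10 was called higher, beside 8.79% of all genes, and 1 lower, beside 2.08%. Clec10a was higher by 1.00 ± 0.18 (adjusted p = 0.00403, edgeR) and Gpnmb lower by 1.07 on the log2 scale (SE 0.27, adjusted p = 0.0156, edgeR). The other 8 lay between -0.02 (Mrc1) and 0.63 (Trem2), and the median of the 10 was 0.24 (all genes, 0.0198). Clec10a sat at the fold threshold and fell to 0.94, 0.98 and 0.83 without Sham library 1, Sham library 4 or LPi-Lp library 2. Gpnmb lost its call without Sham library 1, Sham library 2 or LPi-Lp library 4 (-0.96, -0.93 and -0.90), and 0 of the 10 were called without Sham library 1.

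Between the HPi-Hp and LPi-Lp mice, edgeR called 0 of the 10 and 0% of all genes. At an unadjusted p under 0.05 it found 3 of the 10 and 1420 of all 15850 genes tested, and DESeq2 called 0 of the 10 and 88 genes in all. Spi1 had the largest difference (0.90 ± 0.25, adjusted p = 0.492, edgeR) and was the 1 gene of the 10 whose HPi-Hp libraries all lay above the LPi-Lp libraries, beside 2.93% of all genes. Gpnmb was at -0.01 ± 0.35.

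Per gene length, the order of the genes differed between the groups. In the Sham mice the mean FPKM was 5.07 ± 1.51 (SD, n = 4) for Lyve1, 4.70 ± 0.85 for Cd68 and 3.50 ± 0.46 for Mrc1, followed by Spi1 (2.89), Cd163 (2.68), Gpnmb (2.66), Clec10a (2.57), Itgb2 (2.16), Adgre1 (1.49) and Trem2 (0.528). The ranges of neighbours overlapped from Lyve1 down to Adgre1, and Trem2 lay wholly below Adgre1. In the HPi-Lp mice Cd68 led with 27.4 ± 17.9 FPKM, before Clec10a (22.3), Mrc1 (18.7), Spi1 (16.4), Cd163 (16.1), Itgb2 (16.1), Lyve1 (15.1), Trem2 (9.52), Gpnmb (8.44) and Adgre1 (8.37), and the ranges of each gene and the next overlapped. Trem2 thus moved from far below Adgre1 to its level, and Lyve1 from the highest place to the seventh. In the HPi-Hp and LPi-Lp mice Cd68 (9.82 and 6.83 FPKM) and Lyve1 (8.12 and 5.73 FPKM) led, and Trem2 (1.28 and 0.806 FPKM) and Gpnmb (1.25 in both) were the lowest.

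Set against Adgre1 in the same library, Trem2 and Gpnmb were the genes whose share differed most between groups. The ratio of Trem2 to Adgre1 FPKM was 0.268, 0.240, 0.522 and 0.542 in the Sham mice and 0.647, 1.24, 1.10 and 1.34 in the HPi-Lp mice. It was 0.417 to 0.531 in the HPi-Hp and 0.211 to 0.731 in the LPi-Lp mice, so that 1 library of the latter lay above the lowest HPi-Lp library. Gpnmb stood at 1.57 to 2.12 times Adgre1 in the Sham mice, at 1.14, 0.932, 0.395 and 1.88 times in the HPi-Lp mice, and at 0.296 to 0.892 and 0.502 to 0.884 times in the other 2 groups, all below the lowest Sham library. The ratio of Itgb2 was 1.45 to 2.12 in the HPi-Lp and 0.807 to 1.22 in the HPi-Hp mice, with no overlap. Lyve1 had a mean ratio of 2.13 ± 0.90 in the HPi-Lp mice and 3.55 ± 1.08, 2.95 ± 0.74 and 3.11 ± 0.67 in the Sham, HPi-Hp and LPi-Lp mice, with overlapping ranges. The ratios of Cd68, Spi1, Mrc1, Cd163 and Clec10a overlapped between the HPi-Lp and each other group. No test was run on the ratios, which are a description.

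**Figure D3:**
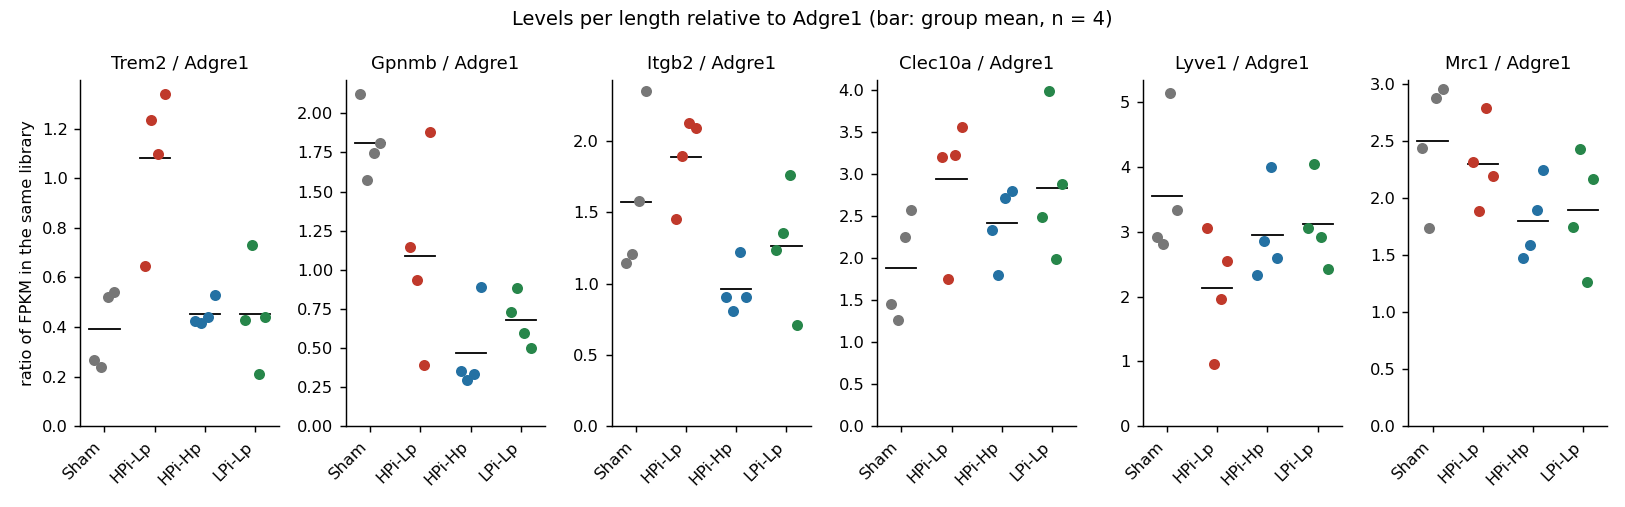
Ratio of the FPKM of 6 of the genes to that of Adgre1 in the same library, on linear axes from 0, with 4 libraries per group and black bars at the means. The lowest Trem2 ratio of the HPi-Lp mice, 0.647, lies above all Sham libraries, and Gpnmb is highest in the Sham mice.

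The 4 libraries of the HPi-Lp mice differed from each other more for some genes than for others. Library 1 was the lowest of the 4 for 8 of the 10 genes, the exceptions being Lyve1 and Gpnmb, and library 2 the highest for 7 of the 10. The highest of the 4 was 5.62 times the lowest for Trem2, 4.72 for Spi1, 4.47 for Cd68, 3.97 for Gpnmb, 3.84 for Itgb2 and 2.94 for Adgre1. For the resident-like genes it was 2.40 (Mrc1), 1.76 (Cd163), 1.76 (Clec10a) and 1.22 (Lyve1). In the Sham mice the same ratio was 1.25 (Clec10a) to 2.31 (Adgre1). Library 2 was also the deepest and had the highest summed level of 5 fibroblast markers, at 11648 CPM against 2682 in library 1. Most of these sums was Col1a1 alone, at 9117 CPM in library 2 and 1529 CPM in library 1. The summed level of 6 smooth muscle markers was 5034 CPM in library 1, 4396 in library 3, and 2223 and 2226 in libraries 2 and 4, which differed in Cd68 (63.7 and 21.8 CPM) and Itgb2 (79.7 and 40.1 CPM). These values accompany the spread of the macrophage genes, and their part in it was not tested.

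**Figure D4:**
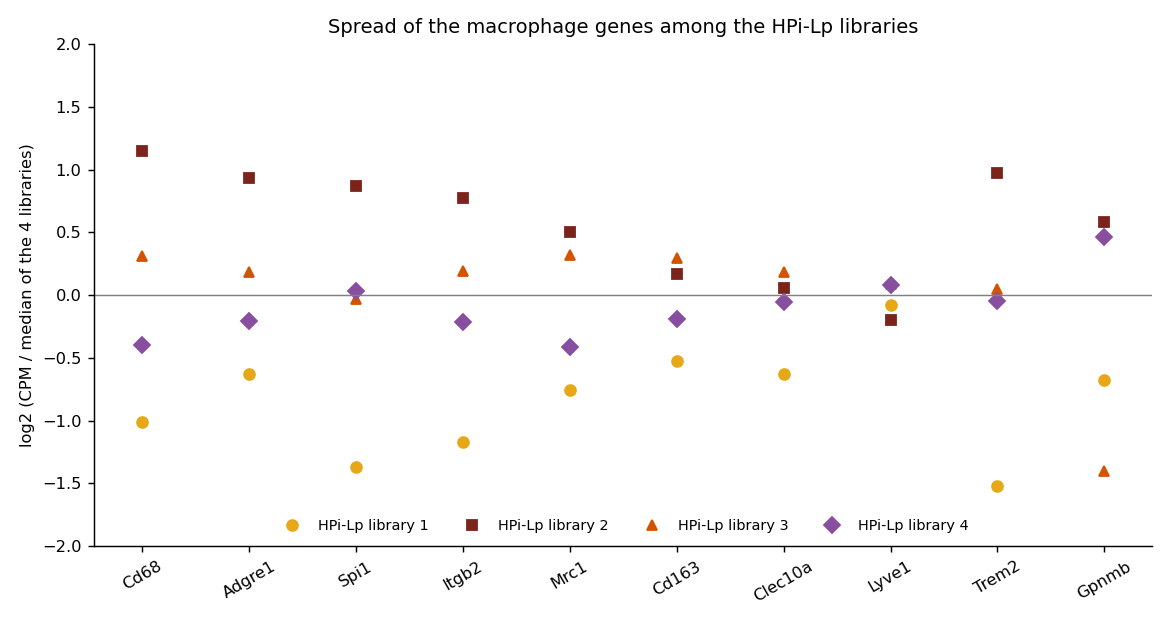
For each gene, the log2 ratio of the CPM in each of the 4 libraries of the HPi-Lp mice to the median of the 4. Points of Lyve1 lie close together, those of Trem2 and Spi1 far apart, and the triangle of library 3 drops to the bottom for Gpnmb alone.

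Of 21 genes that act with these markers, in 4 short lists, 20 could be tested. In the HPi-Lp mice, 13 were called higher and 1 lower against Sham, 9 higher against HPi-Hp and 9 higher against LPi-Lp. Of all genes tested, 15.0%, 5.01% and 7.90% were called higher in these comparisons, and 1186 of 16513 lower against Sham. Against Sham, 5 of the 20 were called higher in the HPi-Hp and 2 in the LPi-Lp mice, beside 9.41% and 8.79% of all genes. Csf1r, the receptor that macrophages need to survive, was at 33.9 to 41.8 CPM in the Sham and 89.1 to 222 CPM in the HPi-Lp libraries, and rose by 1.96 against Sham (adjusted p = 0.000248, edgeR), 1.07 against HPi-Hp and 1.80 against LPi-Lp. Its ligand Csf1 did not rise (log2 fold change -0.51 against Sham, adjusted p = 0.0207, edgeR, under the fold threshold). The other ligand, Il34, was higher than in Sham in the HPi-Lp (1.86), HPi-Hp (1.59) and LPi-Lp mice (1.495), and did not pass the test between the HPi-Lp and the other 5/6 Nx mice (0.31 and 0.40).

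Of the genes around TREM2, its adaptor Tyrobp (DAP12) rose by 2.42 against Sham (adjusted p = 0.000834, edgeR), 1.46 against HPi-Hp and 2.30 against LPi-Lp. The second adaptor Hcst (DAP10) rose by 2.10 against Sham and did not pass the test against the other groups. Its log2 fold change against HPi-Hp was 1.65, the largest of this list. Syk, the kinase downstream, was called in all 3 comparisons (2.28, 1.53 and 1.76). Apoe, which encodes an apolipoprotein bound by TREM2 and made by several cell types, was also called in all 3 (2.14, 1.13 and 2.06). Clu, which encodes another such apolipoprotein, was lower than in Sham (-1.10, adjusted p = 0.0128, edgeR). It was at -0.999 in the HPi-Hp and -0.894 in the LPi-Lp mice against Sham, without a call. Between the HPi-Lp mice and these 2 groups it was at -0.08 and -0.15.

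CD18 pairs with an alpha chain to form each leukocyte integrin. Itgam, the CD11b chain of Mac-1, was at 1.34 to 3.93 CPM in the Sham and 8.95 to 40.2 CPM in the HPi-Lp libraries, and rose by 3.29, 2.89 and 3.26 against Sham, HPi-Hp and LPi-Lp. Itgax, the CD11c chain, rose by 3.58, 1.93 and 2.65. Itgal, the CD11a chain used widely by lymphocytes, was not called (0.69, 0.61 and 1.43), and Itgad had at most 17 counts in any library. Fermt3, which activates these integrins in blood cells, rose by 1.93, 1.24 and 1.56, whereas their endothelial ligands Icam1 (0.40, 0.81 and 0.70) and Icam2 (-0.56, -0.66 and -0.54) did not pass the thresholds.

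Around Cd163, Hp encodes the plasma protein haptoglobin, whose complex with haemoglobin CD163 takes up. Hp was at 54.2 to 125 CPM in the Sham and 1531 to 4396 CPM in the HPi-Lp libraries, and rose by 5.34, 2.58 and 3.09 against the 3 other groups. It was also higher in the HPi-Hp (2.80) and LPi-Lp mice (2.29) than in Sham. Hmox1, which opens the haem ring, rose by 3.94, 3.30 and 3.51 and was not called in the other 2 groups against Sham (0.67 and 0.49). Slc40a1, the iron exporter ferroportin, rose against Sham alone in the HPi-Lp mice (1.59) and in the HPi-Hp mice (1.21). Ferritin light chain Ftl1 was called against Sham (1.24), and ferritin heavy chain Fth1 (-0.50) and biliverdin reductase Blvrb (0.46) stayed under the fold threshold.

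Longer lists of macrophage genes, set beside the 10, moved alike in part. Their counts stand beside 15.0%, 5.01% and 7.90% of all genes called higher in the HPi-Lp mice against Sham, HPi-Hp and LPi-Lp. Called lower in these 3 comparisons were 1186 of 16513, 504 of 16198 and 647 of 16253 genes. For HPi-Hp and LPi-Lp against Sham the shares were 9.41% and 8.79% higher, and 2.75% and 2.08% lower. Of 18 other genes of macrophages and myeloid cells, 17 were called higher in the HPi-Lp mice against Sham (median 2.69), 16 against HPi-Hp (median 1.83) and 17 against LPi-Lp (median 2.52), from Ctss, a lysosomal protease (3.92 against Sham), to Mertk, a receptor for dying cells, which was called in none of the 3 (-0.86 against Sham). Against Sham, 3 were called in the HPi-Hp and 0 in the LPi-Lp mice. Of 14 other resident-like genes, 10 were called higher and 1 lower against Sham (median 1.37), 5 and 2 against HPi-Hp (median 0.68) and 7 and 0 against LPi-Lp (median 1.36), from the chemokine Ccl8 (5.17 against Sham) to Cbr2 (-1.40), a carbonyl reductase.

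Of 16 other lipid-associated genes, 9 were called higher against Sham (median 1.61), 6 against HPi-Hp (median 0.73), and 6 higher and 1 lower against LPi-Lp (median 0.37). They ran from Spp1 (9.11 against Sham), which encodes osteopontin and is made by macrophages and by mineralizing cells alike, to the tetraspanin Cd9 (-0.91). Spp1 was at 0.918 to 1.58 CPM in the Sham and 246 to 1249 CPM in the HPi-Lp libraries. In the HPi-Hp mice 4 of these genes were higher and 1 lower than in Sham, and in the LPi-Lp mice 5 and 1. Lpl, named after its values were seen, had the largest log2 fold change of the list in both (2.75 and 2.79). In these 2 groups 6 of 6 adipocyte markers were also called higher than in Sham, and the part of fat cells in these counts was not tested. Among 14 genes of monocytes and inflamed macrophages, 12 could be tested against Sham and 10 were called higher (median 3.13), with 8 against HPi-Hp and 8 against LPi-Lp (medians 2.55 and 2.62). They ran from Arg1, an arginine-degrading enzyme (6.44 against Sham), to the monocyte surface gene Ly6c2 (0.86, adjusted p = 0.351, edgeR). In the other 2 groups 3 and 1 of these genes were higher than in Sham.

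**Figure D5:**
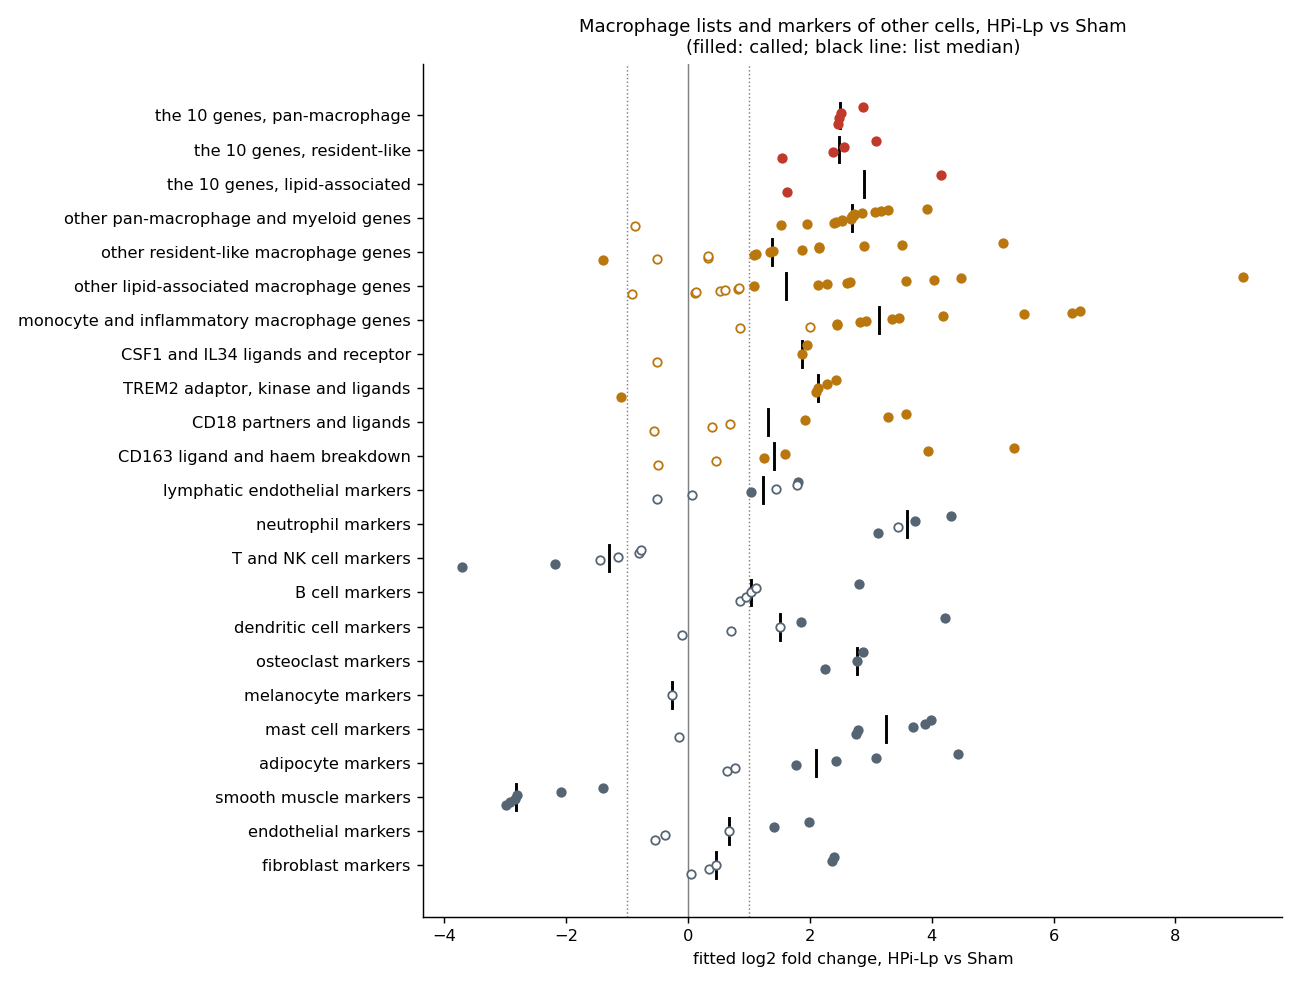
Fitted log2 fold changes in the HPi-Lp against the Sham mice for the genes of each list that could be tested, 1 point per gene, filled where called, with a black line at the list median. The genes of macrophages lie mostly to the right of 1, and smooth muscle markers lie to the left. Neutrophil, mast cell, osteoclast and adipocyte markers also have medians to the right (3.59, 3.25, 2.77 and 2.10). Endothelial and fibroblast markers have medians of 0.67 and 0.45, and T and NK cell markers one of -1.30.

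Markers of other cells moved as well. Of 9 neutrophil markers, 4 could be tested against Sham and 3 were called higher (S100a8, S100a9 and Retnlg, named after their values were seen), the summed level being 1.11 to 7.67 CPM in the Sham and 12.6 to 38.9 CPM in the HPi-Lp libraries, while Ly6g had 0 counts in all 8 of these libraries and Mpo in 7 of them. Among 7 markers of T and NK cells 6 could be tested, and 0 were higher and 2 lower against Sham (Cd8a and Lck), beside 1186 of 16513 genes called lower. Their summed level was 33.8 and 77.8 CPM in Sham libraries 2 and 4 and 5.56 to 13.1 CPM in the HPi-Lp libraries. Sham libraries 1 and 3 lay within the HPi-Lp range. Cd8a was at 3.11 to 24.3 CPM in the Sham and 0.593 to 1.26 CPM in the HPi-Lp libraries, and Lck at 4.47 to 30.6 and 1.79 to 3.59 CPM. Against Sham, 1 of 5 tested B cell markers (Pax5) and 2 of 5 tested dendritic cell markers (Flt3 and Cd209a) were called higher. Beside these counts, 15.0% of all genes tested were called higher. Of 7 osteoclast markers only 3 could be tested, and all 3 were called higher (Acp5, Ctsk and Mmp9). Calcr, Dcstamp and Ocstamp had 0 to 181 counts. Summed levels in the Sham and HPi-Lp libraries were 4.06 to 18.8 and 11.4 to 41.2 CPM for the B cell markers, and 21.0 to 25.1 and 21.8 to 36.1 CPM for the dendritic cell markers. Mast cell markers were called higher in all 3 nephrectomized groups against Sham (5 of 6, 4 of 5 and 4 of 5 tested). Between the HPi-Lp and the other 5/6 Nx mice, 0 were called. Of the adipocyte markers, 4, 6 and 6 of 6 were called higher against Sham, with sums of 239 to 681 CPM in the Sham, 2522 to 7645 in the HPi-Lp, 709 to 7457 in the HPi-Hp and 1070 to 2972 CPM in the LPi-Lp libraries. Smooth muscle markers fell, with 6, 5 and 6 of 6 called lower in the HPi-Lp mice against Sham, HPi-Hp and LPi-Lp. Of all genes, 1186 of 16513, 504 of 16198 and 647 of 16253 tested were called lower. The smooth muscle sums were 21666 to 25737 CPM in the Sham and 2223 to 5034 CPM in the HPi-Lp libraries. Fibroblast markers were called higher in 2, 4 and 4 of 5 cases, and endothelial markers in 2, 0 and 0 of 5. How much of the macrophage result goes with these shifts in the makeup of the tissue was not tested.

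Genes most like each of the 10 over the 16 libraries were found among all genes with enough counts. The measure was the root-mean-square difference of log2(CPM + 1) after centring each gene on its mean, over 17443 genes. Nearest to Cd68 were Spint1 (0.172) and Csf1r (0.244), to Adgre1 Cotl1 (0.222) and Csf1r (0.234), to Spi1 Tyrobp (0.201) and C1qa (0.215), and to Itgb2 Lyz2 (0.258) and Itgam (0.258). Mrc1 was nearest to Racgap1 (0.219) and Tnfsf13b (0.246), Cd163 to Ifi207 (0.212) and Ms4a6c (0.264), Clec10a to Lilr4b (0.228) and Pirb (0.243), and Lyve1 to Adap2 (0.260) and Mlkl (0.293). Trem2 was nearest to the chemokines Ccl9 (0.259) and Ccl6 (0.284). Gpnmb had no close neighbour, Loxl2 (0.445) and Emp1 (0.533) being the nearest. Among the 10 themselves, Adgre1 and Cd68 were the closest pair (0.253).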

How the data were processed

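The authors aligned poly(A)-selected reads of 16 mouse aortas to mm10 and deposited, per gene, raw counts (featureCounts 1.5.0-p3) and FPKM. Strandedness and the treatment of reads matching several genes are not given in the sources used here. The deposited FPKM divide by a size-factor-scaled total. Rows were chosen by the symbols of the 10 genes, and genes and lists were chosen with earlier results of these data known. For each of 6 comparisons, the 8 libraries were fitted with edgeR 4.0.16 (R 4.3.3; filterByExpr, TMM, quasi-likelihood test, Benjamini-Hochberg over all genes tested), and SE is the size of the log2 fold change over the square root of F. Each library is 1 mouse. No pair of libraries of a group agreed within sampling noise. Alternatives used DESeq2 1.42.0 and limma 3.58.1 on log2(FPKM + 1) and log2(FPKM + 0.1), with a mean FPKM of at least 0.5. On data simulated for 5/6 Nx-HPi-Lp against Sham (16513 genes), edgeR recovered 98 of 200 changed genes, 73 of the 100 changed 4-fold, with 6 false calls. Named were the 10 genes, the highest and lowest of each list by fold change against Sham, any gene of lists of up to 7, and the 2 genes most like each of the 10. Promoters came from RefSeq (GRCm38.p6).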

Additional observations from a re-analysis of the deposited data

How the results depend on the processing

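Against Sham and against LPi-Lp, 10 of the 10 genes stayed called in the HPi-Lp mice under each alternative run, with 10 to 10 when 1 library was left out. Against HPi-Hp the 9 calls became 8 with RLE scaling, library totals or libraries thinned to the lowest total, 7 with limma at either pseudocount, and 6 without HPi-Lp libraries 2 and 3, with a range of 6 to 9 when 1 library was left out. The 5 calls of HPi-Hp against Sham became 3 with library totals and 1 with limma on log2(FPKM + 1), with a range of 2 to 6. The 2 calls of LPi-Lp against Sham became 1 with RLE scaling, library totals, DESeq2, no count filter, limma on log2(FPKM + 0.1) or thinned libraries, and 0 with all 16 libraries in 1 fit or limma on log2(FPKM + 1), with a range of 0 to 2. Between HPi-Hp and LPi-Lp the count was 0 throughout, 0 to 0 with 1 library left out. In 16 cases a fold change near 0 turned its sign, 0 of them past the p threshold. For LPi-Lp against Sham, library totals gave -0.035 for Spi1, -0.082 for Itgb2 and -0.055 for Lyve1, and with 1 library left out Itgb2 ran from -0.14 to 0.40 and Mrc1 from -0.14 to 0.065. For HPi-Hp against LPi-Lp, Gpnmb was at 0.060 with library totals, 0.0061 with at least 10 counts in every library and 0.056 in thinned libraries, and with 1 library left out Gpnmb ran from -0.30 to 0.23 and Itgb2 from -0.095 to 0.43. The cause of these changes was not tested. Thinning and the joint omission of libraries 2 and 3 were chosen after seeing the data.

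The replicate numbers do not mark shared animals, and deviations of same-numbered libraries correlated at -0.20 to 0.41, so the numbers were not taken as pairs. With a replicate block the counts were 10, 6 and 10 for the HPi-Lp mice against Sham, HPi-Hp and LPi-Lp, and 1 for LPi-Lp against Sham.

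Over all genes, limma on log2(FPKM + 1) called 2057, 783 and 1068 against 3666, 1315 and 1931 in the comparisons of the HPi-Lp mice with Sham, HPi-Hp and LPi-Lp, and 878 and 870 against 1932 and 1748 for HPi-Hp and LPi-Lp with Sham. Against HPi-Hp, 1 fit of all 16 libraries called 2011, the replicate block 371, and omission of libraries 2 and 3 744. Against LPi-Lp the block called 1271. Between the latter 2 groups DESeq2 called 88, no count filter 12 and the block 10, against 0. With library totals the median of all genes shifted by -0.14, -0.21 and -0.24 in HPi-Lp, HPi-Hp and LPi-Lp against Sham, and higher genes made up 59.1%, 52.1% and 55.4% of calls against 67.6%, 77.4% and 80.8%. Of the 10 genes, thinning changed the calls of Spi1 (HPi-Lp against HPi-Hp, adjusted p = 0.0508, edgeR), Adgre1 (HPi-Hp against Sham, 1.07) and Clec10a (LPi-Lp against Sham, 0.95).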
